A study of Drosophila melanogaster with 2 samples.

Results

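The structural cuticle protein genes of Drosophila melanogaster were examined in a chromatin immunoprecipitation sequencing (ChIP-seq) map of the transcription factor Broad. Members are the protein-coding genes whose Ensembl symbol begins with Twdl, Lcp or Edg, or with Cpr followed by a digit. This rule gave 113 genes of the 13968 protein-coding genes on 7 chromosome arms, namely 70 Cpr, 25 Twdl, 15 Lcp and 3 Edg genes. It sets apart the gene called Cpr alone, a P450 reductase. The series has 1 group, transgenic br-RJ-GFP wandering larvae of the third instar, with males and females pooled, age unknown and whole organisms as the material. The line stably expresses the br-RJ product with GFP at its C-terminal end, and the chromatin bound to it was recovered with an antibody against GFP. Both samples, labelled biological replicates 1 and 2, carry the same insertion, and no group without it is among the samples, so the values below describe 1 condition. A peak in whole larvae cannot be placed in a tissue, and binding in a few epidermal cells cannot be told apart from absence of binding in many. Chromatin was sonicated to a range of 200 to 800 bp, so a summit marks a position more coarsely than its base coordinate.

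The insect cuticle is a layered matrix of chitin fibres and structural proteins that the epidermis secretes anew at every moult. Most Cpr and Lcp genes encode proteins with the Rebers-Riddiford domain, which binds chitin. The Tweedle genes (Twdl) encode a separate cuticle protein family, known from dominant mutations, in TwdlD and in Tb, that make larvae and pupae short and stout. Edg78E, Edg84A and Edg91 were isolated as ecdysone-dependent genes, expressed in imaginal discs or epidermis as the pupal cuticle is formed. The br gene encodes a set of zinc finger isoforms induced early by ecdysone, and it is required for metamorphosis and for the switch to the pupal programme in the epidermis. Wandering larvae approach the ecdysone pulse that starts pupariation.

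The map held few strong Broad peaks at these genes. Broad here stands for the tagged br-RJ product, and binding of the other br isoforms was not examined. Bound here means that the authors' optimal peak set has a summit at most 1000 bp from an annotated start site, which was true of 2 of the 113 members (1.77%), Cpr72Eb and Cpr62Ba, against 3399 of all 13968 protein-coding genes (24.3%). No Twdl gene of 25, no Lcp gene of 15 and no Edg gene of 3 was bound. The optimal set has 6635 peaks, which are the strongest 6635 of the 30000 peaks called on the pooled replicates when ranked by the authors' signal value. The unit of that value is not stated, so it is used here to rank peaks within a list. In the optimal set it starts at 79.96 and has a median of 137.

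Cpr72Eb (chr3L:16364899-16365707, plus strand, dm6) had the stronger of the bound summits. Its peak (chr3L:16364381-16364494) was summited at 16364405, in the promoter region 494 bp upstream of the start site, with a signal of 209.8 in the pooled list, where it ranked 1806. Replicate 1 gave a signal of 120 and replicate 2 a signal of 87.8 for a summit within 100 bp. Cpr62Ba (chr3L:1824129-1831783, minus strand) had its summit at 1829760, inside an intron and 818 bp upstream of an internal start site. That peak had a signal of 122 in the pooled list, rank 3937, with 72.5 in replicate 1 and 49.8 in replicate 2. Both peaks were thus found in both replicates, and the Cpr62Ba peak lay below the median signal of the optimal set. Measured from the most upstream start site of each gene, Cpr62Ba was not bound.

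The DNA under the optimal peak is shown for the bound genes and for Cpr72Ea and Cpr76Ba. Those were chosen after their values were seen, as the unbound members with an intergenic optimal summit within 2000 bp that lies nearest to their own start site. Each run is 151 bases of the plus strand of dm6 (RefSeq), 75 to either side of the summit. The windows are chr3L:16364330-16364480 for Cpr72Eb, chr3L:1829685-1829835 for Cpr62Ba, chr3L:16361294-16361444 for Cpr72Ea and chr3L:19516648-19516798 for Cpr76Ba. Capitals mark a match, on either strand, to one of the 5 hexamers most concentrated at optimal summits (ACTATC first, then CGATAG, then AACTAT, which can overlap ACTATC, then ATATTA, with ACACTG last).
Cpr72Eb: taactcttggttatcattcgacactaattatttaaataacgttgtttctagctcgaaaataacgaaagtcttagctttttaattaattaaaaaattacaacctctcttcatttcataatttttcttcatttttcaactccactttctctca
Cpr62Ba: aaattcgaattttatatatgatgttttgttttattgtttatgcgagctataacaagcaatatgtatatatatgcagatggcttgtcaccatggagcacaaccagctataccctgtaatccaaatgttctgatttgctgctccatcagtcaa
Cpr72Ea: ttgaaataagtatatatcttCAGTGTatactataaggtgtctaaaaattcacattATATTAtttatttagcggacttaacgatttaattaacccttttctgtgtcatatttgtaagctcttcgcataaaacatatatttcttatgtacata
Cpr76Ba: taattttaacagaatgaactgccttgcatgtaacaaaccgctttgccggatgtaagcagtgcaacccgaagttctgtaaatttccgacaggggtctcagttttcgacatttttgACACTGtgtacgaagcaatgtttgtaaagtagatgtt

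The hexamers were ranked by the share of optimal summits holding them within 50 bp, relative to windows centred 250 bp away. ACTATC stood at 5.02% of summit windows and 2.31% of the shifted windows, a ratio of 2.17, and ACACTG, the lowest of the 5, had a ratio of 1.96. At least 1 of the 5 was in 44.7% of all 6635 optimal windows of 151 bases. The windows of Cpr72Eb and Cpr62Ba held none, that of Cpr72Ea held ATATTA and ACACTG (read as CAGTGT), and that of Cpr76Ba held ACACTG. The window of Cpr72Eb is A and T rich, with 26.5% G and C, and that of Cpr72Ea has 25.2%, against 34.4% for Cpr62Ba and 40.4% for Cpr76Ba. A hexamer match is a string of letters and is not evidence of a binding site.

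The nearest optimal summit was mostly far from these genes. The median distance from a start site was 19423 bp over the members, against 6541 bp over all protein-coding genes. By family the median was 12386 bp for Cpr, 30852 bp for Twdl and 36098 bp for Lcp, and the closest summit to any Twdl gene was 3614 bp away and to any Lcp gene 12286 bp away. The 3 Edg genes lay 6779 bp (Edg78E), 16128 bp (Edg91) and 75228 bp (Edg84A) from an optimal summit. Edg84A was the most distant of all 113 members.

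Wider windows took in more members. Within 5000 bp, 20 members (17.7%) had an optimal summit, against 44.1% of all protein-coding genes, and within 20000 bp the figures were 57 members (50.4%) and 77.9%. The nearest optimal peak of 101 members lay nearest to the start site of a gene that is not a member. The 113 members shared 51 distinct nearest peaks, of which 6 were nearest to a member.

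**Figure D1:**
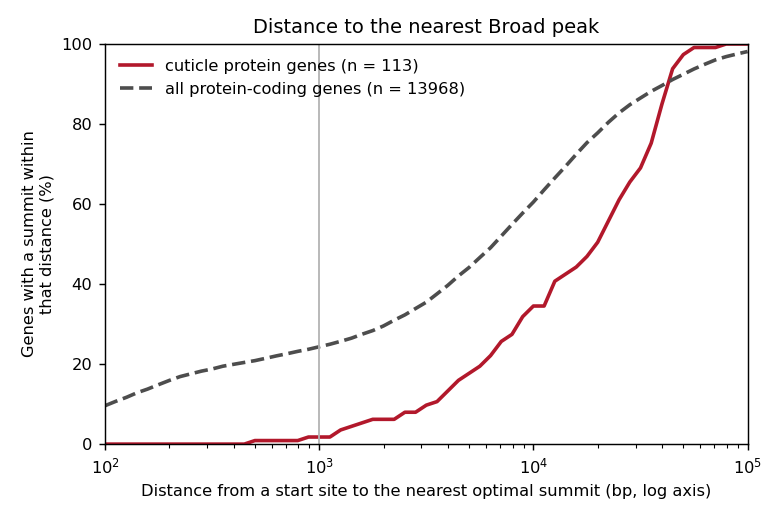
Share of genes with an optimal summit within a given distance of a start site, on a log distance axis, for the 113 cuticle protein genes (solid line) and for all 13968 protein-coding genes (dashed line), with a grey line at 1000 bp. At 1000 bp the shares are 1.77% and 24.3%, and at 20000 bp they are 50.4% and 77.9%.

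Members just outside the window were all Cpr genes. The peak near Cpr72Ea lay 1234 bp from its start site and had a signal of 139.6, with 73.8 in replicate 1 and 68.4 in replicate 2. Cpr72Ea and Cpr72Eb are neighbours, so these optimal summits stand 494 and 1234 bp upstream of adjacent genes of the same strand. The peak near Cpr76Ba lay 1609 bp downstream of its start site, beyond the gene, with a signal of 131, and replicates 1 and 2 gave 60.5 and 72.8. The same peak was the nearest to Cpr76Bb, at 2926 bp. Both peaks are intergenic, and no other annotated protein-coding start site is nearer to either. Cpr73D had an intronic summit 1537 bp downstream of a start site of its own, with a signal of 92.4 and with 45.6 and 45.9 in replicates 1 and 2. For 3 others a neighbour's start site was nearer to the peak. The peak 1248 bp from Cpr97Eb, with a signal of 189, lay 765 bp from the start of CG14258, the peak 1413 bp from Cpr51A, with a signal of 96.4, lay inside Cpr51A but in the promoter of CG30197, and the peak 2441 bp from Cpr67B, with a signal of 89.3, was nearest to eIF4E1, a translation initiation factor gene. Cpr12A had an intergenic summit 2283 bp upstream with a signal of 172, and 77.1 and 87.1 in replicates 1 and 2.

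Weaker peaks, below the limit of the optimal set, lay near some members. A pooled-list summit stood within 1000 bp of a start site for 31 members (27.4%), against 46.3% of all protein-coding genes. By family these were 22 of 70 Cpr genes (31.4%), 3 of 25 Twdl genes (12%), 6 of 15 Lcp genes (40%) and none of the 3 Edg genes. The replicate lists gave like counts, with a summit near 28 members in replicate 1, where 48.8% of all genes had one, and near 27 members in replicate 2, where 48.6% of all genes had one. Both replicates had one near 23 members and near 42.4% of all genes. The other 82 members had no pooled summit in the window. The lists hold 30000 peaks each, so a gene without a listed summit may still carry signal below the last peak of the list, which stands at 16.2 in the pooled list.

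The 29 members with a pooled summit but no optimal one had signals from 16.5 to 76.9 with a median of 29.7, against a median of 40.7 over the 3063 protein-coding genes in the same position. Their strongest summit was found in both replicate lists for 12 of 29 (41.4%), against 1684 of the 3063 genes (55%). The 31 members with a pooled summit had 29 distinct strongest peaks, since Lcp2 and Lcp3 share one and so do Cpr65Aw and Lcp65Ad. Of these 29 peaks, 13 were in both replicate lists, 14 in exactly 1 and 2 in neither. The median distance of that summit from the start site was 494 bp in members and 180 bp over all genes with one. In members it lay upstream in 23 cases and downstream in 8.

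Cpr12A came closest to the limit of the optimal set among unbound members. Its pooled summit, 186 bp upstream of the start site, had a signal of 76.9, with 46.5 in replicate 1 and no summit within 100 bp in replicate 2, whose strongest summit in the gene's window had 26.4. Cpr73D had a signal of 73.2 at 890 bp, with 56.0 in replicate 2 and none matched in replicate 1, whose strongest summit in the window had 36.3. The start site nearest to the pooled summit is that of Ogdh, a gene of the citric acid cycle. Both of these summits were thus matched within 100 bp in 1 replicate only. Cpr49Ah (68.2 pooled, 41.7 and 26.2 in replicates 1 and 2), Cpr47Ec (66.4 pooled, 30.7 and 36.6), Cpr66D (55.6 pooled, 23.4 and 32) and Cpr47Ed (48.9 pooled, 27.4 and 19.7) were matched in both. The Cpr49Ac summit stood 4 bp from a start site, with 63.7 in the pooled list and 27.1 in replicate 2. Replicate 1 had no summit within 100 bp of it but had others in the gene's window, the strongest with 59.98, against 31.5 for the strongest of replicate 2 there.

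Of the 15 larval cuticle protein (Lcp) genes, 6 had a pooled summit within 1000 bp, all of them weak, and the rest had none. Lcp2 and Lcp3, which are transcribed away from each other, shared a pooled peak between them, 259 and 266 bp upstream of their start sites, with a signal of 43.5 and with 20.4 and 19.3 in replicates 1 and 2. Lcp4 had a signal of 30.2 at 66 bp (11.9 and 14.8) and Lcp1 a signal of 26.2 in its 3′ untranslated region (19.8 in replicate 1, no match in replicate 2). Lcp65Ad (22.8) and Lcp65Ae (20.05) were lower. The Lcp65Ad summit, 840 bp from its start site, was nearer to that of Cpr65Aw and was matched in replicate 2 only. Of the Tweedle genes, TwdlT had a signal of 27.5 at 120 bp with 13.4 and 13.8 in replicates 1 and 2. TwdlF (26.0) and TwdlE (24.7) were matched within 100 bp in replicate 1 only. Elsewhere in their windows the strongest summits of replicate 2 had 10.6 (TwdlF) and 13.5 (TwdlE). The last members of the named set were Cpr78E (36.8 pooled, 15.3 and 26.9), Cpr51A (36.2 pooled, 25.4 in replicate 1) and Cpr23B (35.2 pooled, 17.1 and 18.6), whose summit is nearer to CG3119.

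**Figure D2:**
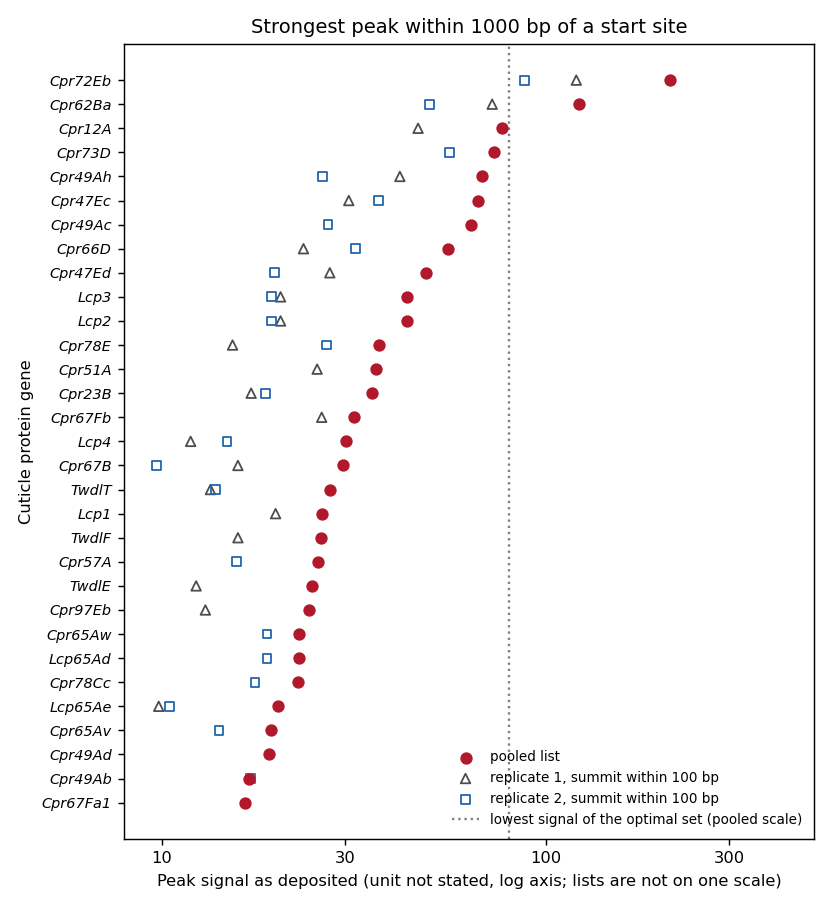
Signal of the strongest pooled summit within 1000 bp of a start site for the 31 members that have one, on a log axis (filled circles), with the matched summits of replicate 1 (triangles) and replicate 2 (squares) and the lowest signal of the optimal set (dotted line, on the pooled scale). Cpr72Eb (209.8) and Cpr62Ba (122) stand right of the line at 79.96 and the other 29 members left of it, down to 16.5.

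Most of the members sit in tandem clusters, and the optimal peaks lay around these clusters more than in them. Runs of 3 or more members separated by at most 20 kb gave 14 clusters with 79 members over 222715 bp. They held 2 optimal summits, the ones at Cpr72Eb and Cpr62Ba, or 8.98 per Mb. The 20 kb flanks on either side held 30, or 53.6 per Mb of 560000 bp, and the 7 arms together 48.2 per Mb. In the pooled list the difference was small, with 211 summits per Mb inside clusters, 254 in the flanks and 218 over the arms. The 47 pooled summits inside clusters were unevenly spread. The Cpr49Aa to Cpr49Ah cluster held 18 and the Lcp65Ag3 to Cpr65Az cluster 9. The Cpr64A, Cpr76B, TwdlF, TwdlM and TwdlX clusters held 0. Of the 14 clusters, 12 had no optimal summit inside and 11 had at least 1 in a flank. Of the 34 members outside clusters, 0 were bound.

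The other genes lying within the clusters were unbound as well, 0 of 14, against 21 of the 114 genes starting in the flanks (18.4%). Only 2 of the 30 flank peaks had a member as the gene with the nearest start site, the peaks of Cpr72Ea and Cpr76Ba, and 15 lay in promoters. The strongest flank peak of all, at rank 29 with a signal of 1556, was in the promoter of CG11309, 3411 bp beyond the Cpr78C cluster that includes Edg78E. Replicate 1 gave 804 and replicate 2 gave 752 for it. It was also the optimal summit closest to Edg78E, at 6779 bp. Beside the Cpr47E cluster, a summit in Fbl6, an F-box protein gene, had a signal of 701 (351 and 349 in replicates 1 and 2). Beside the Cpr64A cluster, a summit in an intron of ImpL2, an ecdysone-inducible gene of a secreted insulin-binding protein, had 685 (354 and 348). The TwdlF cluster was flanked by a peak of 349 at DhpD and the TwdlX cluster by one of 268 at goe. Strong peaks therefore stood within 20 kb of several clusters, each nearest to the start of a gene outside the cuticle families.

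No optimal summit lay inside or within 20 kb of 3 clusters. The Lcp65Ag3 to Cpr65Az cluster, with 17 members the largest, stood in a stretch of 90260 bp without an optimal summit. The TwdlM to TwdlD cluster, with 12 members, stood in 126122 bp and the cluster Lcp1 to Lcp4 in 117150 bp. These differed in the pooled list. The Lcp65Ag3 to Cpr65Az cluster held 9 pooled summits with signals up to 74.7, the Lcp1 to Lcp4 cluster held 5 up to 43.5, and the TwdlM to TwdlD cluster held 0. The summit of 74.7 lay over 1000 bp from every member start site. The strongest within 1000 bp of a member of the Lcp65Ag3 to Cpr65Az cluster had 22.8 (Cpr65Aw and Lcp65Ad).

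**Figure D3:**
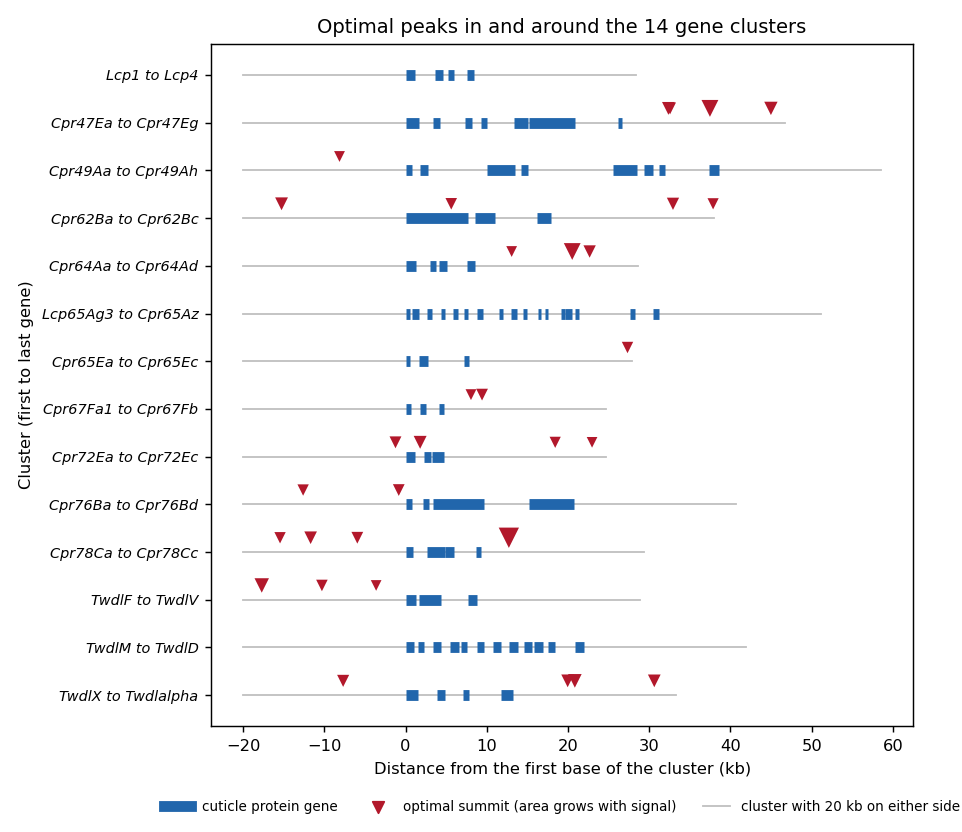
Map of the 14 clusters with 20 kb on either side, drawn to scale from the first base of each cluster in kb. Blue blocks are cuticle protein genes and red triangles optimal summits, with an area that grows with signal. Summits lie inside the Cpr62Ba to Cpr62Bc and Cpr72Ea to Cpr72Ec clusters only (2 in all), while 30 lie in the flanks, the strongest (1556) to the right of the Cpr78Ca to Cpr78Cc cluster.

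Edg91 and Edg84A lie outside the clusters. The nearest optimal summit to Edg91 was in the promoter of Sgs5, a salivary glue protein gene, with a signal of 142, and the nearest to Edg84A was in the promoter of bcd, with a signal of 150.4. The nearest pooled summits to the Edg genes were 2790 bp (Edg78E), 5842 bp (Edg91) and 12018 bp (Edg84A) away.

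Gene size and mapping were set beside these counts. The members are short, with a median of 989 bp against 2164 bp over all protein-coding genes, and 90.3% have 1 start site, against 73.5%. Among the 5802 protein-coding genes under 2000 bp with 1 start site, 13.1% were bound, and 1 of the 90 members among them was. Repeated sequence can keep reads from being placed. At least 20% of the 32-base words within 1000 bp of the start site recur in the genome for 7 members, led by Lcp65Ab1 (73.7%), Lcp65Ab2 (72.9%), Cpr65Ax1 (63.7%) and Cpr65Ax2 (62.8%), and for 3.91% of all protein-coding genes. The remaining 106 members had the same 2 bound genes and all 31 with a pooled summit. The part of repeats in the counts of those 7 was not tested, and the labels and deposited notes do not say how such reads were placed.

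Many promoters of the members have a feature that the choice of genes did not use. The hexamer TATAAA on the gene's strand, starting 40 to 20 bases before the most upstream start site, was in 63 of 113 members (55.8%), against 7.78% of all protein-coding promoters. By family it was in 34 Cpr genes (48.6%), 15 Twdl genes (60%), 11 Lcp genes (73.3%) and all 3 Edg genes. Some members have near-identical promoters, as Lcp65Ab1 and Lcp65Ab2 do, so the 113 promoters are not independent of each other. TATA boxes position the transcription machinery at many tightly regulated genes. Over all 1087 genes with this hexamer 10.2% were bound, and of the 63 members with it 1 was, Cpr72Eb. Cpr62Ba lacks it at its most upstream start site.

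Promoter sequences are shown for the 3 ecdysone-dependent genes and for the bound Cpr72Eb and Cpr62Ba. They are also shown for the near-identical pair Lcp65Ab1 and Lcp65Ab2, and for TwdlM and TwdlD at either end of the TwdlM to TwdlD cluster. Each run is the 60 bases before the most upstream start site, 5′ to 3′ on the gene's strand (dm6, RefSeq), with TATAAA in capitals. For Cpr62Ba the start site within 1000 bp of the optimal summit is an internal one, so its run does not precede the bound start site. The windows are chr3L:21297804-21297863 (minus) for Edg78E, chr3R:6684385-6684444 (plus) for Edg84A, chr3R:17611512-17611571 (minus) for Edg91, chr3L:16364839-16364898 (plus) for Cpr72Eb, chr3L:1831784-1831843 (minus) for Cpr62Ba, chr3L:6149488-6149547 (plus) for Lcp65Ab1, chr3L:6146614-6146673 (plus) for Lcp65Ab2, chr3R:26619058-26619117 (plus) for TwdlM and chr3R:26639965-26640024 (plus) for TwdlD.
Edg78E: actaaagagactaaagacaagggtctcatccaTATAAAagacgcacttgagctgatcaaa
Edg84A: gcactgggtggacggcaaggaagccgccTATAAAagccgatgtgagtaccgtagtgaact
Edg91: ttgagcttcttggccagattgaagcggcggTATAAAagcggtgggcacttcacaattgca
Cpr72Eb: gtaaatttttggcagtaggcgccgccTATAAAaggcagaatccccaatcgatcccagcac
Cpr62Ba: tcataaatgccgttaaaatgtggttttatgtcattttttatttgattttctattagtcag
Lcp65Ab1: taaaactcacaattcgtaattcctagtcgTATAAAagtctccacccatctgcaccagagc
Lcp65Ab2: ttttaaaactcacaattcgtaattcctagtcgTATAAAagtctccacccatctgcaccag
TwdlM: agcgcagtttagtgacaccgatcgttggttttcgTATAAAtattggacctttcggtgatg
TwdlD: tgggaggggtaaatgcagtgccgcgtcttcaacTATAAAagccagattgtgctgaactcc

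The hexamer begins 28 bases before the start site in Edg78E, 32 in Edg84A, 30 in Edg91 and 34 in Cpr72Eb. The Lcp65Ab1 and Lcp65Ab2 windows share an unbroken run of 57 of 60 bases, so their hexamers differ in position (31 and 28 bases before the start) by the annotated start alone. Other letters were searched from 250 bases before to 50 after the start site. TCAGT, an initiator sequence, was searched on the gene's strand and was in 38.1% of members and 36% of all promoters. Within 5 bases of the start site, where an initiator lies, it was in 3.54% of members and 5.91% of all promoters. GAGAG, on either strand, was in 31% and 29.7%, and AGGTCA, on either strand, in 7.08% and 5.88%. ACTATC, on either strand, was in 7.96% of members against 14.2% of all promoters. Of the genes with it 30.3% were bound, against 24.3% of all protein-coding genes. ACTATC was picked for its concentration at these same optimal summits, so neither comparison is independent of the peaks. The median G and C content of these promoters was 43.7% in members, 38.3% in bound genes and 38% over all genes.

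**Figure D4:**
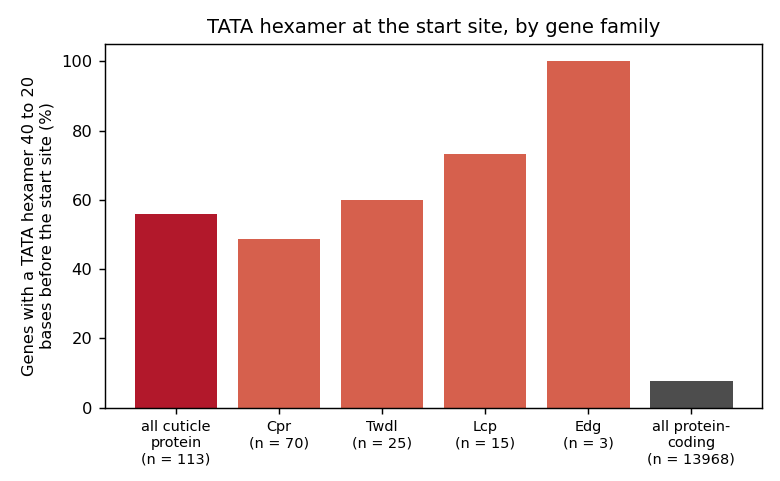
Share of genes with TATAAA starting 40 to 20 bases before the most upstream start site, for the 113 cuticle protein genes, their 4 families and all 13968 protein-coding genes. The members stand at 55.8%, from 48.6% in Cpr to 100% in the 3 Edg genes, and all genes at 7.78%.

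Genes of related function were counted in the same way. Over all protein-coding genes 24.3% were bound and 46.3% had a pooled summit within 1000 bp. In a list of 28 other cuticle protein genes (the Ccp84A cluster, Acp1, Acp65Aa, Pcp, resilin, Crys, Tb, the Vajk genes, Vml, the obstructor genes and Gasp) 0 were bound, and 10 (35.7%) had a pooled summit within 1000 bp. The strongest of these was at Vml, with 75.9. Their median distance to an optimal summit was 16602 bp. Tb is a Tweedle gene that falls outside the members by its symbol, and its nearest optimal summit was 57948 bp away.

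Genes of chitin synthesis, modification and breakdown were listed with the chitinase-like Idgf genes, which encode secreted growth factors. A pooled summit stood near 30 of these 33 genes (90.9%), against 46.3% of all protein-coding genes. Of the 33, 12 were bound (36.4%), against 24.3% of all protein-coding genes. They were led by the hexosaminidase gene Hexo2 (545) and the chitinase genes Cht7 (306) and Cht11 (245), followed by Hexo1 (228), nst (164), mmy (127), Cht2 (123), Idgf6 (117), reb (91.7), Idgf2 (88.5), Gfat1 (84.2) and exp (83.2). Of these, nst, mmy and Gfat1 act in the synthesis of the chitin precursor, and reb and exp are needed for chitin deposition. The chitin synthase gene kkv had a pooled peak alone (67.9). The median distance of this list to an optimal summit was 3631 bp.

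Of 17 regulators of the ecdysone response and of the epidermis, 12 were bound (70.6%), against 24.3% of all protein-coding genes. A pooled summit stood near 16 of them (94.1%), against 46.3% of all genes. Their median distance to an optimal summit was 245 bp. Eip75B, a nuclear receptor gene induced early by ecdysone, had the strongest peak (727). It was followed by br itself (224), usp (223), grh (216), Eip74EF (189.8), Hr3 (182), crol (171), EcR (161), Kr-h1 (152), ftz-f1 (135), Blimp-1 (113) and Eip78C (80.9). EcR and usp encode the ecdysone receptor and its partner, and grh encodes an epidermal factor that acts on cuticle genes. The lists differ in gene length and number of start sites, and the part of these in the counts was not tested.

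**Figure D5:**
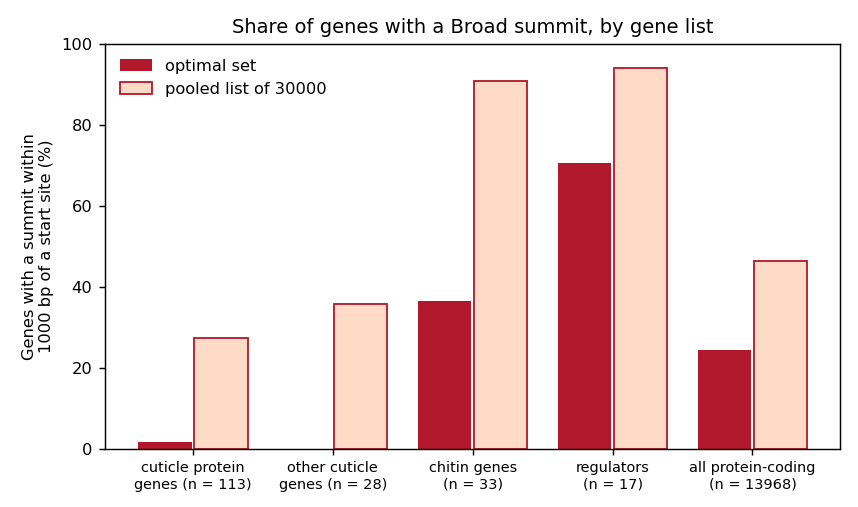
Share of genes with a summit within 1000 bp of a start site in the optimal set (filled bars) and in the pooled list (pale bars), for cuticle protein genes, other cuticle genes, chitin genes, regulators and all protein-coding genes. The optimal shares are 1.77%, 0%, 36.4%, 70.6% and 24.3% and the pooled shares 27.4%, 35.7%, 90.9%, 94.1% and 46.3%.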

How the data were processed

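The authors deposited peak lists on the builds dm6 and dm3, of which the 4 dm6 lists were used. These are 1 list for each of the 2 replicates, 1 list from the pooled replicates, and the optimal set derived from them, per the notes deposited beside the lists. The deposited lists give each peak a signal value, whose scale is not stated, and a −log10 q value as the authors' caller wrote it. Peaks were called against a control alignment that is not analysed here, per the same notes. Neither the labels nor those notes name the aligner, the caller or the reproducibility cutoff, and read depth is unknown.

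Summits were set against start sites of Ensembl release 115 with Python 3.11.15, numpy 2.4.6 and pandas 2.3.3, and sequence was read from the RefSeq copy of the same assembly. No peak and no member was filtered out. A replicate summit was matched to a pooled summit within 100 bp. The window call was tested on simulated data. The members and the 3 comparison lists were chosen with earlier results of these data known, so no list was tested. Genes named are the bound members, the unbound members with the strongest pooled peaks or the shortest distances, and the 3 Edg genes. Also named are the bound genes of the comparison lists and the genes at the strongest peak in or beside some clusters. Weaker flank peaks of the remaining clusters are left unnamed. Other genes named were chosen after their values were seen. Protein sequences were not used here.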

Additional observations from a re-analysis of the deposited data

How the results depend on the processing

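The number of bound members stayed at 8 or fewer of 113 under every alternative. It was 1 within 500 bp, 7 within 2000 bp, 1 from the most upstream start site alone, 6 over the gene body with 1000 bp on either side, 8 when each summit went to its nearest start site at any distance, and 1 (Cpr72Eb) among peaks above the median signal. Over all protein-coding genes these settings gave 20.8%, 29.5%, 22.4%, 30.7%, 25.2% and 15%. With the 6635 strongest peaks of a single replicate in place of the optimal set the count was 3 (without replicate 1) and 4 (without replicate 2), against 24.7% and 25.5% of all genes. Cpr72Eb and Cpr62Ba were bound in both, with Cpr73D added without replicate 1 and Cpr12A and Cpr49Ac without replicate 2. Other cuticle protein genes had 1 of 28 bound within 2000 bp and 0 to 1 when a replicate was left out. Among peaks above the median signal, 5 of 33 chitin genes were bound, against 15% of all protein-coding genes. Members with a pooled summit were 20 within 500 bp and 13 among the 15000 strongest peaks, against 41.1% and 36.9% of all genes. The median distance ranged from 12890 to 19984 bp when a replicate was left out. Optimal summits per Mb inside clusters were 0 for clusters of 5 members or more, 4.49 above the median signal and 8.98 to 18 when a replicate was left out. The other 35 of 51 alternatives kept their value within 1.5 times, including the counts without the 7 members in repeated sequence, an alternative chosen after seeing the data. No paired analysis was possible because there is 1 group and no test between groups. Depth is unknown, so a missing peak was not separated from a shallow one.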
